A study of Mus musculus with 4 samples.

Results

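The genes described here are Trp53, which encodes the transcription factor p53, and 8 of its transcriptional targets: Mdm2, Cdkn1a, Ccng1, Sesn1, Trp53inp1, Phlda3, Zmat3 and Aen. The targets are grouped here as non-apoptotic, which is a name only, since Aen is called after its action during apoptosis. All 9 genes were taken by gene symbol from the authors' deposited comparison, which holds each of them. They make up 9 of the 43430 genes in the count table. Their RNA was measured in 4 libraries of sorted CD4+CD8+ double-positive (DP) thymocytes from C57BL/6 mice. The 2 knockout (KO) mice had the genotype Uqcrfs1fl/fl; CD4-Cre+, in which a Cre recombinase under the CD4 promoter, active from about the DP stage, deletes the gene of the Rieske protein of respiratory complex III. The 2 control mice are labelled WT, although the design text describes heterozygous littermates; "WT" here is the name of that group and no more. The sources used here state neither the age of the mice nor whether the controls carried CD4-Cre. Each library is 1 mouse, and RNA of the bulk population was counted, so fewer cells making a transcript and less transcript per cell cannot be told apart.

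p53 is held at a low level by the ubiquitin ligase MDM2, whose own gene is a p53 target. DNA breaks, blocked transcription, shortage of nucleotides and oxidative stress release p53 from this loop. It then raises genes that halt the cell cycle, repair DNA, restrain growth signals, or kill the cell. DP thymocytes are known for dying in a p53-dependent way after irradiation. p53 is regulated mostly through the stability of its protein, so the level of its mRNA says little about its activity, and the mRNA of its targets is the usual readout.

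p53 binds DNA as a tetramer, at pairs of a 10-base motif that consists of 3 purines, C, 2 bases that are A or T, G and 3 pyrimidines. The motif reads alike on both strands. Windows from 250 bases before to 50 bases after annotated transcript starts (RefSeq, GRCm38.p6, which is mm10) were present for 7 of the 9 genes, as 10 windows. Zmat3 and Trp53inp1 had no entry. A pair of adjacent motifs with at most 3 of its 20 positions mismatched was found in 6 of the 10 windows, covering Trp53, Cdkn1a, Ccng1, Sesn1 and Aen, against 6.29% of all 32851 windows. At most 1 mismatch, as in Cdkn1a and Ccng1, occurred in 0.0883% of windows. The genes were listed as p53 targets to begin with, so these matches describe them and test nothing. The best pair of each of the 5 genes is shown to let the letters be set beside the motif, with no binding measured here, as 30 bases from 5′ to 3′ along the gene's strand, with capitals for the positions that match the pair and lower case for its mismatches and for 5 flanking bases on each side.
Trp53: cggaaGGACTTGCCCttACTTGTTatggcg
Cdkn1a: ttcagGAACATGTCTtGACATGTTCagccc
Ccng1: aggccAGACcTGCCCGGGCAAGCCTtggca
Sesn1: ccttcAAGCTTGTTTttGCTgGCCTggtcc
Aen: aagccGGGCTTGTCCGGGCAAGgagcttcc

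The Trp53 stretch lies on the plus strand at chr11:69580279-69580308, with its pair beginning 75 bases before the start. That of Cdkn1a is at chr17:29090923-29090952 on the plus strand, and its pair begins 51 bases before the upstream one of 2 annotated starts. Ccng1 is read from the minus strand, and its stretch is at chr11:40755457-40755486, with the pair 195 bases before the start. For Sesn1 the match is at chr10:41887261-41887290, 173 bases before the start of a transcript that begins inside the gene. The window at its other annotated start held no motif. The Aen match at chr7:78895932-78895961 falls 121 bases before the downstream one of its 2 starts. Windows of Mdm2 and Phlda3 held no pair within 3 mismatches, which says only that these letters are not in those windows. The Mdm2 window held 1 exact motif, 186 bases before the start, and that of Phlda3 held none. Pairs with bases between the 2 motifs were not counted here.

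Uqcrfs1 itself checked the labels. It stood at 15.6 and 18.6 CPM in KO replicates 1 and 2, against 61.4 and 57.2 CPM in WT replicates 1 and 2 (CPM scales each count to a common library total, here with TMM factors). It fell by 1.80 on the log2 scale (SE 0.09, adjusted p = 1.78e-04, edgeR's quasi-likelihood test). Libraries held 34080516 and 31728511 gene counts in KO and 32846323 and 30408863 in WT. Of 13281 genes tested, 3 passed the threshold of an adjusted p under 0.05, which is 0.0226%; 0.00753% were higher and 0.0151% lower in KO. At an unadjusted p under 0.05 there were 8.4% of genes, with 4.4% higher and 4.01% lower. An exact permutation test of 2 libraries against 2 cannot give a p below 0.333, so each p here comes from the fit over all genes. A p that misses the threshold does not show that the groups were alike, and intervals are given for that reason. Reads that matched no counted feature made up 20.6% and 19.9% of uniquely aligned reads in KO and 17.2% and 18.6% in WT. Both KO libraries thus had more of these reads. The counting mode is not given, so where they lie is not known, and their part in the results was not tested.

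All 10 markers of DP cells were detected, summing to 17670 and 17590 CPM in KO and 16920 and 18050 CPM in WT. Cd4 was at 2069 and 2087 CPM in KO and 1934 and 2092 CPM in WT, with overlapping groups. Cd8a was at 3002 and 2953 CPM in KO and 3174 and 3225 CPM in WT (log2 change -0.10, unadjusted p = 0.0481, adjusted p = 0.589, edgeR's quasi-likelihood test). Cd8b1 and Cd3e, with changes of -0.09 and -0.11, also had both KO libraries below both WT libraries, and the other 7 DP genes overlapped. Groups did not overlap for 40.5% of all genes tested, 20.4% with KO above and 20.1% with KO below WT. Markers of earlier double-negative thymocytes summed to 224 and 270 CPM in KO and 204 and 206 CPM in WT, higher in both KO libraries also without their most abundant gene, Gata3 (139 and 184 CPM in KO, 111 and 113 CPM in WT). Notch3 made up most of the sum without Gata3, at 82.5 and 98.4 CPM in KO and 65.9 and 65.1 CPM in WT (log2 change 0.47, adjusted p = 0.213, edgeR's quasi-likelihood test). Gata3 itself was lower in KO, at 85.2 and 86.1 CPM against 92.4 and 92.8 CPM in WT. Of the 10 double-negative genes, 4 (Il2ra, Cd44, Dtx1 and Notch3) had both KO libraries above both WT libraries, and 1 (Gata3) had both below. Dtx1 was at 18.4 and 25.3 CPM in KO and 11.0 and 11.2 CPM in WT. Il2ra was at 12.9 and 26.4 CPM in KO and 8.50 and 10.5 CPM in WT. Log2 changes of Dtx1 and Il2ra were 0.98 and 1.05 (adjusted p = 0.124 and 0.615, edgeR's quasi-likelihood test).

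KO replicate 2 stood apart in markers of other cells. It was the highest library for 8 of the 11 myeloid genes, 7 of the 10 genes of mature T cells, 7 of the 10 double-negative genes and 5 of the 6 B cell genes. The other lists were mixed. Of genes with counts it led 2 of 7 NKT and effector genes, where WT replicate 1 led 4. It led 2 of 6 stromal genes, where WT replicate 2 led 4. Of 4 erythroid genes it led 2, and KO replicate 1 and WT replicate 2 led 1 each. Lyz2 had 17 and 170 counts in KO and 16 and 7 in WT, Csf1r 4 and 42 in KO and 5 and 4 in WT, and Zbtb7b, of CD4 lineage T cells, 48 and 219 in KO and 74 and 63 in WT. Most of these lists are dominated by 1 gene, so their sums hide this: myeloid genes were at 73.9 and 77.9 CPM in KO and 77.5 and 78.2 CPM in WT, but without Cst3 at 17.5 and 27.0 CPM in KO and 18.6 and 17.6 CPM in WT. B cell genes without Cd79b were at 2.17 and 3.31 CPM in KO and 1.68 and 1.42 CPM in WT. NKT and effector genes without Gzma (Ifng at 0) were at 2.88 and 6.65 CPM in KO and 4.54 and 3.39 CPM in WT. Il2rb alone made up 4.79 CPM of the value in KO replicate 2. Stromal genes without Pecam1 were at 4.28 and 5.86 CPM in KO and 5.15 and 6.26 CPM in WT, with Krt8, Col1a2 and Pdgfra at 0. Erythroid genes summed to 0.440 and 0.410 CPM in KO and 0.244 and 0.329 CPM in WT, with Slc4a1 at 0. The part of these cells in the results was not tested, and each gene's value without KO replicate 2 is given.

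None of the 9 genes passed the threshold (0 of 9, with 0.0226% of all genes called). Of the 9, 6 had a higher mean and 3 a lower mean on the fitted log2 scale, and their changes ran from -0.25 (Sesn1) to 0.20 (Cdkn1a). The median log2 change of the 9 genes was 0.042, beside -9.8e-05 over all genes tested. KO and WT libraries overlapped for 8 of the 9 genes. The exception was Sesn1, for which both KO libraries lay below both WT libraries. Over all genes tested, 40.5% had groups that did not overlap, 20.4% with KO above and 20.1% with KO below WT. Sesn1 was also the 1 gene of the 9 with an unadjusted p under 0.05.

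**Figure D1:**
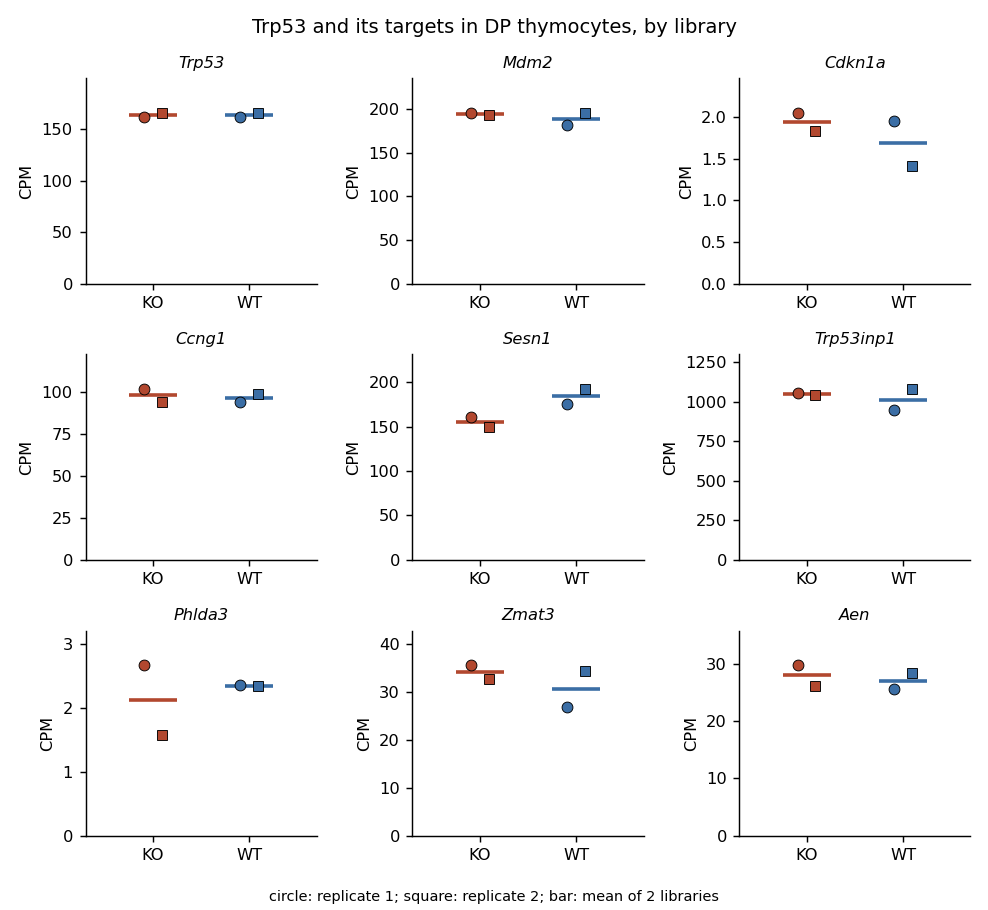
Level in CPM (vertical axis of each panel, from 0) of the 9 genes in the 2 KO and 2 WT libraries; circles are replicate 1, squares replicate 2, and bars the mean of the 2 libraries. Only in the Sesn1 panel do both KO points, at 161 and 150 CPM, lie below both WT points, at 176 and 193 CPM.

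Trp53 mRNA was at nearly the same level in the groups. It stood at 162 and 166 CPM in KO replicates 1 and 2, and at 162 and 166 CPM in WT replicates 1 and 2. The 2 libraries of each group differed more from each other than the group means did, which were 164 ± 2.74 CPM in KO and 164 ± 2.71 CPM in WT (SD, n = 2 each). The log2 change was -0.00043 (SE 0.05), with a 95% interval from -0.11 to 0.11, or -7.30% to 7.81% (adjusted p = 0.999 in edgeR's quasi-likelihood test). Trp53 (ENSMUSG00000059552) lies on the plus strand of chromosome 11, from 69580359 to 69591873 in mm10. Its paralogs Trp63 and Trp73, which can bind similar DNA motifs, had no reads (Trp63) and 1 read in all 4 libraries together (Trp73). Neither had enough counts to be tested.

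The feedback arm consists of Mdm2, which marks p53 for degradation, and Ccng1, which encodes cyclin G1, a partner of protein phosphatase 2A that acts on MDM2. Mdm2 (ENSMUSG00000020184, chr10:117688875-117710758, minus strand) and Ccng1 (ENSMUSG00000020326, chr11:40748552-40755311, minus strand) were both well expressed. Mdm2 stood at 196 and 193 CPM in KO, against 182 and 196 CPM in WT. Only WT replicate 1 lay apart, and the groups overlapped. The log2 change of Mdm2 was 0.04 (SE 0.05, 95% interval -0.08 to 0.16, which is -5.28% to 11.9%, adjusted p = 0.843, edgeR's quasi-likelihood test). Ccng1 stood at 102 and 93.9 CPM in KO, against 94.0 and 98.7 CPM in WT, with the KO libraries on either side of both WT libraries. Its log2 change was 0.02 (SE 0.06, 95% interval -0.11 to 0.16, which is -7.48% to 11.6%, adjusted p = 0.931). The ratio of Mdm2 to Trp53 in CPM was 1.21 and 1.16 in KO and 1.12 and 1.18 in WT. Mdm4, the MDM2 relative that blocks p53's activation domain, stood at 760 and 763 CPM in KO and 690 and 737 CPM in WT, a log2 change of 0.09 (SE 0.05, adjusted p = 0.637).

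Cdkn1a encodes p21, the inhibitor of cyclin-dependent kinases through which p53 halts the cell cycle, and it was the lowest of the 9 genes. Cdkn1a (ENSMUSG00000023067) lies at chr17:29090976-29100727 on the plus strand. It had 70 and 58 counts in the KO libraries and 64 and 43 counts in the WT libraries. That is 2.05 and 1.83 CPM in KO, with exact Poisson 95% intervals for counting error of 1.6 to 2.59 and 1.39 to 2.36 CPM. In WT it is 1.95 and 1.42 CPM, with intervals of 1.5 to 2.49 and 1.02 to 1.91 CPM. All 4 intervals share the values between 1.6 and 1.91 CPM. The log2 change of 0.20 (SE 0.28) had a 95% interval of -0.43 to 0.84, or -25.8% to 78.6% (adjusted p = 0.857, edgeR's quasi-likelihood test). The interval leaves both a decrease and an increase of Cdkn1a possible. An antisense entry of the mm10 annotation, AC167363.2, covers 7.68% of the exon bases of Cdkn1a and is not among the counted genes; the sources used here do not state whether counting used the strand. The related inhibitor gene Cdkn1b, which encodes p27, was at 397 and 376 CPM in KO and at 351 and 377 CPM in WT (log2 change 0.09, SE 0.05, adjusted p = 0.683). Cdkn1b was named after its values were seen.

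Sesn1 and Phlda3 act on growth signalling. Sestrin 1, the product of Sesn1, binds the GATOR2 complex and thereby restrains mTORC1, the kinase complex that senses nutrients. Sesn1 (ENSMUSG00000038332) lies at chr10:41809935-41908424 on the plus strand. Sesn1 stood at 161 and 150 CPM in KO replicates 1 and 2, against 176 and 193 CPM in WT replicates 1 and 2. Means were 156 ± 8.42 CPM in KO and 184 ± 12.1 CPM in WT (SD, n = 2 each), and the gap between the nearest KO and WT libraries was wider than the gap within KO and narrower than the gap within WT. The log2 change was -0.25 (SE 0.06, 95% interval -0.39 to -0.10, unadjusted p = 0.00362), a change of -15.6% with an interval of -23.5% to -6.93%. After adjustment over all genes Sesn1 did not pass (adjusted p = 0.443, edgeR's quasi-likelihood test). It ranked 105th of the 13281 genes by p, and 7.88% of genes had a log2 change further below 0. In the authors' deposited table Sesn1 has a log2 change of -0.25 and an adjusted p of 0.0662 from their own edgeR comparison, the smallest of the 9 genes there. It is not marked as changed. The authors marked 27 genes as higher and 19 as lower among 11536, and 0 of the 9.

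The call of Sesn1 depended on the setting, while its direction did not. Its log2 change lay between -0.31 and -0.18 over the 14 other settings and left-out libraries. It passed the threshold without a filter on low counts (adjusted p = 0.00285, where 0.911% of genes were called) and without WT replicate 1 (adjusted p = 0.0257, where 0.297% were called). The share of all genes called was 0.0226% with RLE factors, library totals or non-robust estimation, 0.026% with a filter of 1 CPM in 2 libraries, 0.148% with DESeq2, 0.61% and 0.76% with edgeR's exact and likelihood ratio tests and 0.0151% with limma voom. It was 0.387% without KO replicate 1, 0.322% without KO replicate 2, 2.65% without WT replicate 2 and 0.203% with the replicate number as a block. Sesn1 was called in none of these. Adjusted p over the 14 settings ran from 0.00285 to 0.974. Without KO replicate 2, the library that stood apart in markers of other cells, the log2 change of Sesn1 was -0.19 (adjusted p = 0.974), and without KO replicate 1 it was -0.30 (adjusted p = 0.284). The other sestrin genes differed from Sesn1 in level. Sesn2 was at 7.07 and 7.53 CPM in KO and at 7.92 and 8.20 CPM in WT, a log2 change of -0.14 (SE 0.13, adjusted p = 0.777), also without overlap between the groups. Sesn3, named after its values were seen, was at 27.5 and 25.9 CPM in KO and at 24.2 and 26.9 CPM in WT (log2 change 0.07, SE 0.08, adjusted p = 0.848). Neither relative passed, and the difference between sestrin genes was not tested.

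Phlda3 encodes a small pleckstrin homology protein that competes with the kinase AKT for membrane lipids, and lies at chr1:135766119-135769136 on the plus strand (ENSMUSG00000041801). It had 91 and 50 counts in KO and 77 and 71 counts in WT, which is 2.67 and 1.58 CPM in KO and 2.35 and 2.34 CPM in WT. The KO libraries were the highest and the lowest of the 4, and KO replicate 2 had an exact Poisson 95% interval of 1.17 to 2.08 CPM, against 2.15 to 3.28 CPM for KO replicate 1. The log2 change of -0.14 (SE 0.29, 95% interval -0.80 to 0.52, adjusted p = 0.915 in edgeR's quasi-likelihood test) took its direction from KO replicate 2. Without that library the change was 0.19, and without KO replicate 1 it was -0.57. KO replicate 2 is also the library that stood apart in markers of other cells.

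Trp53inp1 encodes a stress-induced nuclear and autophagy-linked protein that promotes p53 phosphorylation, and it was by far the most abundant of the 9 genes. It lies at chr4:11156431-11174379 on the plus strand (ENSMUSG00000028211). It stood at 1058 and 1039 CPM in KO, against 944 and 1082 CPM in WT, so that both KO libraries fell between the WT libraries. The log2 change was 0.05 (SE 0.06, 95% interval -0.10 to 0.20, which is -6.56% to 14.6%, adjusted p = 0.849, edgeR's quasi-likelihood test). Zmat3, a zinc finger protein that binds RNA and affects splicing (ENSMUSG00000027663, chr3:32334792-32366014, minus strand), stood at 35.7 and 32.8 CPM in KO and at 26.9 and 34.3 CPM in WT. WT replicate 1 was the low library, and the other 3 spanned a narrow range. The log2 change of Zmat3 was 0.17 (SE 0.11, 95% interval -0.09 to 0.42, adjusted p = 0.696). Aen (ENSMUSG00000030609, chr7:78895854-78911209, plus strand) encodes a nuclease that takes its name from its action during apoptosis. It stood at 29.8 and 26.2 CPM in KO, against 25.6 and 28.4 CPM in WT, with a log2 change of 0.05 (SE 0.09, 95% interval -0.16 to 0.26, which is -10.3% to 19.8%, adjusted p = 0.895).

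**Figure D2:**
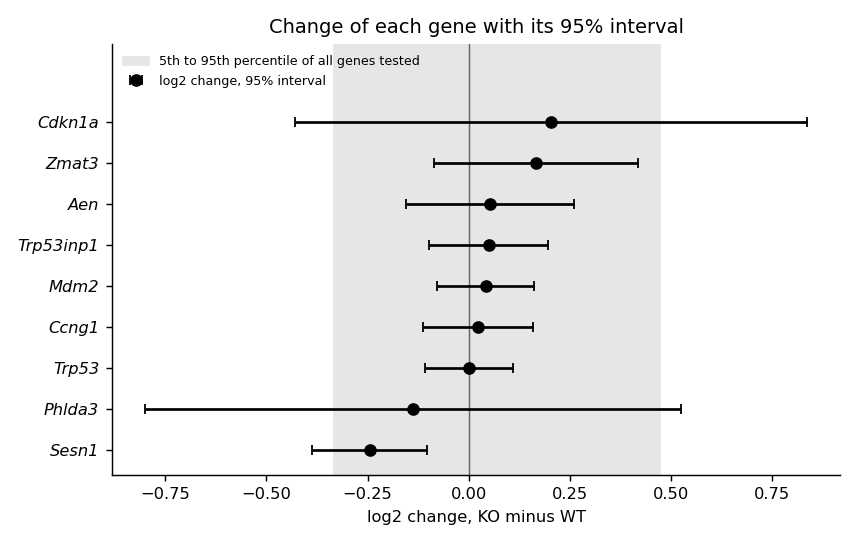
Log2 change of KO minus WT (horizontal axis) for the 9 genes, with points for the fitted change and bars for the 95% interval of edgeR's quasi-likelihood fit, not adjusted for the number of genes; the grey band is the 5th to 95th percentile of all genes tested (-0.33 to 0.47). The interval of Sesn1, -0.39 to -0.10, is the 1 that leaves out 0, and those of Cdkn1a and Phlda3 are the widest.

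All 9 intervals left out a doubling in either direction. They apply to each gene alone and are not adjusted for the number of genes.

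Levels can be compared between the genes only per exon length. CPM was divided by the kilobases covered by the exons of all transcripts of a gene in the mm10 annotation. On this scale Trp53inp1 led at 162 ± 2.00 CPM per kb in KO and 156 ± 15.1 CPM per kb in WT (SD, n = 2 each). Sesn1, Trp53 and Mdm2 followed within a narrow range, at 39.1 ± 2.11, 40.5 ± 0.676 and 38.3 ± 0.411 CPM per kb in KO and at 46.3 ± 3.04, 40.6 ± 0.669 and 37.2 ± 1.93 CPM per kb in WT. The order of these 3 differed between the groups. Sesn1 was the highest of them in both WT libraries. In KO the levels of Sesn1 overlapped those of Trp53 and of Mdm2. The lengths used were 4045 bases for Trp53, 5083 for Mdm2, 3982 for Sesn1 and 3512 for Ccng1. The deposited lengths of these genes are 10910, 15139, 5770 and 4316 bases. Levels on the deposited lengths were not computed, so the narrow range and the order hold for the lengths used here. Ccng1 was at 27.9 ± 1.63 CPM per kb in KO and 27.4 ± 0.939 CPM per kb in WT. Aen (4.82 ± 0.444 in KO, 4.66 ± 0.342 in WT) lay above Zmat3 (3.0 ± 0.179 in KO, 2.68 ± 0.457 in WT), and Phlda3 (1.36 ± 0.496 in KO, 1.5 ± 0.00333 in WT) above Cdkn1a (0.546 ± 0.0449 in KO, 0.474 ± 0.106 in WT), all in CPM per kb. Each of these 4 was separated from its neighbours in every library. By CPM the genes stood between the 19.1th percentile of tested genes (Cdkn1a) and the 99.6th (Trp53inp1).

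**Figure D3:**
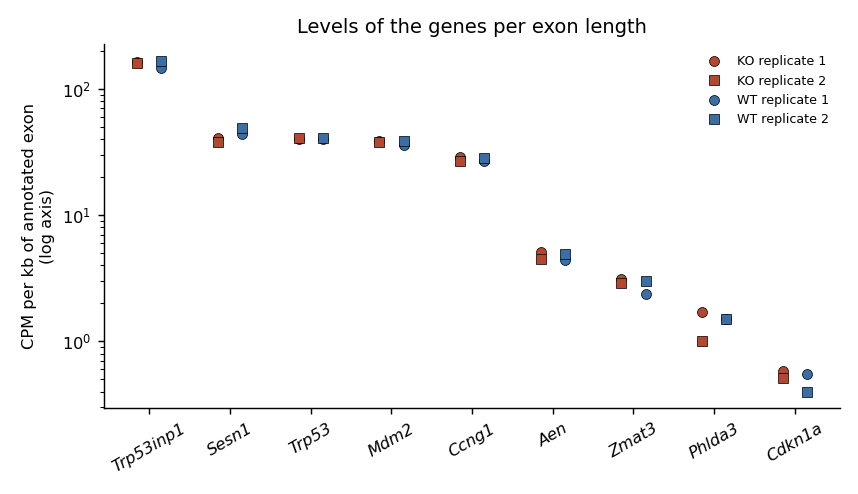
Level per exon length, in CPM per kb of annotated exon on a log axis, of the 9 genes in order of their WT mean; red points are KO and blue points WT libraries, with circles for replicate 1 and squares for replicate 2. Levels span from 162 CPM per kb for Trp53inp1 to 0.546 CPM per kb for Cdkn1a in KO.

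The spread between libraries of 1 group was as large as the change between groups for most of the genes. For 8 of the 9, all except Sesn1, the fitted log2 change was smaller than the larger of the 2 within-group gaps. WT replicate 1 was below WT replicate 2 for 7 of the 9 genes. Over all genes tested, 50.5% were lower in WT replicate 1 than in WT replicate 2. KO replicate 1 was above KO replicate 2 for 8 of the 9. For the KO libraries the share over all genes was not computed, so that count has no background beside it. The largest WT gaps were those of Cdkn1a (0.46 on the log2 scale, replicate 1 higher) and Zmat3 (-0.35, replicate 1 lower). Trp53inp1 differed by -0.20 between WT replicates 1 and 2 and by 0.03 between KO replicates 1 and 2. The summed CPM of the 8 targets was 1587 and 1538 in KO and 1453 and 1637 in WT. Without Trp53inp1, which makes up most of that sum, it was 529.8 and 499.0 in KO and 508.9 and 554.2 in WT. In both sums the KO libraries overlapped the WT libraries.

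**Figure D4:**
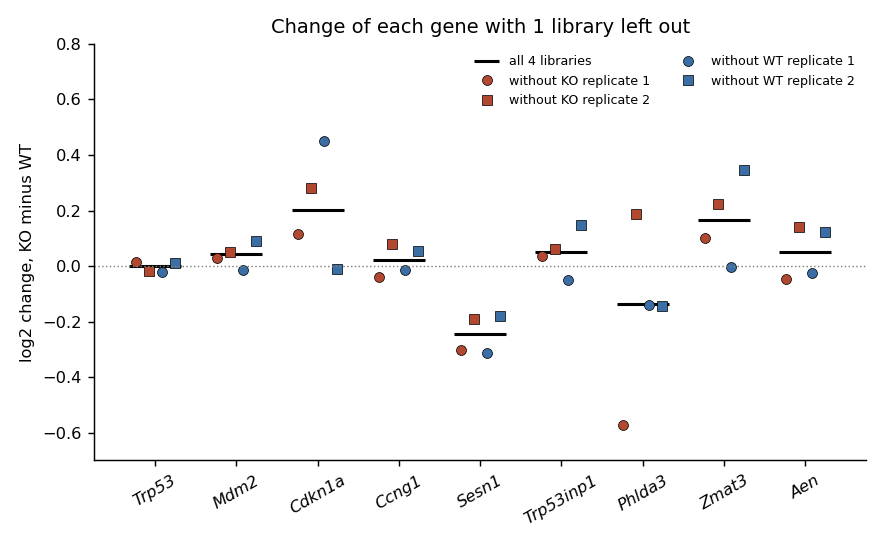
Log2 change of KO minus WT (vertical axis) of the 9 genes with all 4 libraries (black bars) and with each library left out (red for a KO library left out, blue for a WT library; circles replicate 1, squares replicate 2). Sesn1 stays between -0.31 and -0.18, and each of the other 8 genes has at least 1 point on the other side of 0 from its bar.

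Leaving out 1 library turned the direction of every gene except Sesn1. Without WT replicate 1, Mdm2, Ccng1, Trp53inp1, Zmat3 and Aen had log2 changes of -0.01, -0.02, -0.05, -0.0043 and -0.03. Without WT replicate 2, Trp53inp1 was at 0.15 and Zmat3 at 0.35, with adjusted p of 0.0946 and 0.0633 (edgeR's quasi-likelihood test), and Cdkn1a at -0.01. Without KO replicate 2, Trp53 was at -0.02, Mdm2 at 0.05, Cdkn1a at 0.28, Ccng1 at 0.08, Trp53inp1 at 0.06, Zmat3 at 0.22 and Aen at 0.14, with none past the threshold. No gene other than Sesn1 passed the threshold under any of the 14 alternatives.

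Genes with a pattern close to that of Trp53 were numerous. Among 2714 genes within 2-fold of its mean level, the nearest by root mean square distance of centred log2 CPM over the 4 libraries were Itpr3, Scap and Neurl4, at 0.0032, 0.0044 and 0.0045. With 164 genes within 0.02 of Trp53, these are 3 of many genes that differed little between the libraries.

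The wider pathway was described with 5 lists of 90 genes, of which 79 had enough counts to be tested and 0 passed the threshold (0.0226% of all genes did). At an unadjusted p under 0.05 there were 3 of the 79 (3.8%, against 8.4% of all genes). The groups did not overlap for 24.1% of the 79 genes, against 40.5% of all genes. By list this was 6 of 17 regulators, 4 of 22 arrest and repair targets and 4 of 9 apoptotic targets. It was 3 of 11 metabolic targets and 2 of 20 G2/M genes. KO lay above WT for 5 regulators, 1 arrest and repair target and 3 metabolic targets, and below WT for the rest. Over all genes, 20.4% had KO above and 20.1% KO below WT.

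Over all genes tested, 49.9% had a positive log2 change, beside which the sign counts of each list can be set. Of 20 regulators of p53, 17 were tested, 14 with a positive and 3 with a negative log2 change, at a median of 0.02. The smallest of the positive changes was 0.00036. The 2 regulators with the smallest p were Trp53bp1 and Kat5. Trp53bp1 encodes a protein that gathers at DNA breaks and binds p53, and Kat5 an acetyltransferase that modifies p53. Trp53bp1 stood at 73.1 and 75.9 CPM in KO, against 61.7 and 65.5 CPM in WT, with both KO libraries higher (log2 change 0.23, SE 0.06, unadjusted p = 0.00363, adjusted p = 0.443, edgeR's quasi-likelihood test). Kat5 was at 66.5 and 69.4 CPM in KO and at 77.8 and 73.4 CPM in WT (log2 change -0.15, SE 0.06, adjusted p = 0.547). Atm, the kinase that signals DNA breaks to p53, was at 62.7 and 65.2 CPM in KO and 56.8 and 62.5 CPM in WT (log2 change 0.10, SE 0.06, adjusted p = 0.688). Cdkn2a, whose ARF product blocks MDM2, had 0 and 1 counts in KO and 0 and 2 counts in WT.

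Among 26 other arrest and repair targets, 22 were tested, 8 with a positive and 14 with a negative change, at a median of -0.0093. Ddb2, which recognises ultraviolet damage in DNA, was at 106 and 103 CPM in KO and 112 and 112 CPM in WT (log2 change -0.10, SE 0.05, adjusted p = 0.634). Ddit4, also called Redd1, an inhibitor of mTORC1 that is induced by several stresses, was at 109 and 139 CPM in KO and 111 and 101 CPM in WT (log2 change 0.23, SE 0.12, adjusted p = 0.646). It was high in KO replicate 2 alone. Gadd45a, a growth arrest gene, stood at 15.7 and 14.3 CPM in KO and 14.7 and 14.9 CPM in WT.

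Of 12 genes in the apoptotic list, 9 were tested, 2 with a positive and 7 with a negative change, at a median of -0.08. Bbc3, which encodes the killer protein PUMA, was at 25.6 and 22.9 CPM in KO and 26.1 and 31.4 CPM in WT (log2 change -0.24, SE 0.10, adjusted p = 0.579). Bax, which permeabilises the mitochondrial outer membrane, was at 38.5 and 34.8 CPM in KO and 41.7 and 39.1 CPM in WT (log2 change -0.14, SE 0.07, adjusted p = 0.642). In both genes the KO libraries lay below the WT libraries. The groups did not overlap for 4 of the 9 (44.4%, against 40.5% of all genes). All 4 had KO below WT, a direction shared by 20.1% of all genes.

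Of 12 metabolic targets, 11 were tested, 7 with a positive and 4 with a negative change, at a median of 0.04. Pank1, a kinase of coenzyme A synthesis, was at 4.49 and 5.61 CPM in KO and 3.81 and 4.28 CPM in WT (log2 change 0.32, SE 0.19, adjusted p = 0.669). Tigar, a phosphatase that lowers glycolytic flux, was at 4.90 and 4.98 CPM in KO and 4.17 and 4.51 CPM in WT (log2 change 0.19, SE 0.16, adjusted p = 0.775). Fdxr, the mitochondrial ferredoxin reductase, was at 31.1 and 30.6 CPM in KO and 29.6 and 30.2 CPM in WT (log2 change 0.04, SE 0.07, adjusted p = 0.880).

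The 20 G2/M genes, which p53 lowers through p21 and the DREAM repressor complex, had a median of -0.10, with 2 positive and 18 negative changes and 0 of 20 past the threshold. WT replicate 1 was the highest of the 4 libraries for all 20. Aurka, a mitotic kinase, was at 81.0 and 78.5 CPM in KO and 94.8 and 81.9 CPM in WT (log2 change -0.15, SE 0.07, adjusted p = 0.618), and Ccnb2, a mitotic cyclin, at 160 and 153 CPM in KO and 197 and 160 CPM in WT (log2 change -0.19, SE 0.09, adjusted p = 0.631). Without WT replicate 1 the median of the list was 0.05, and without WT replicate 2 it was -0.24, with 14 of the 20 genes then called lower (2.65% of all genes were called in that fit).

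**Figure D5:**
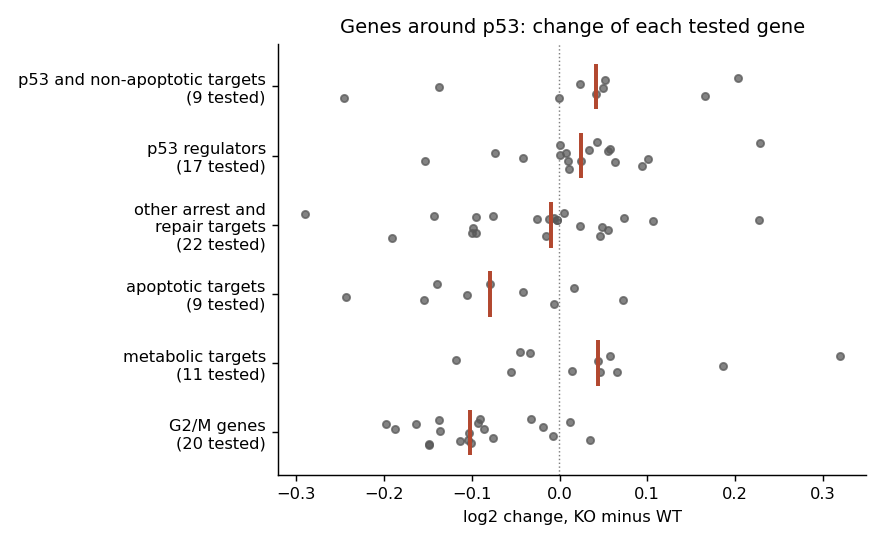
Log2 change of KO minus WT (horizontal axis) of each tested gene in the group of 9 and in the 5 other lists; grey points are genes, red bars the median of each list, and the dotted line the median of all genes tested. Medians lie between -0.10 for the G2/M genes and 0.04 for the metabolic targets and for the 9 genes.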

How the data were processed

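The submitters' processing notes name Trimmomatic 0.33, STAR 2.5.2, HTSeq, edgeR and the mm10 build. The authors deposited HTSeq counts for each Ensembl gene, and their series table equals the sample files over 43430 genes (0 differing cells). The authors' deposited table of 11536 genes adds CPM (counts over the library total), log2 changes, whose sign beside the CPM is KO minus WT, and p-values of their own comparison. Lines that name no gene were left out. The line for reads that matched no counted feature held 17.2% to 20.6% of uniquely aligned reads.

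All genes were tested with edgeR 4.0.16 (R 4.3.3): filterByExpr (minimum count 10, minimum total 15), TMM, robust quasi-likelihood F test with group as the only term, Benjamini-Hochberg adjustment, threshold 0.05. SE is the absolute log2 change over the square root of F, and 95% intervals use the t quantile at each gene's total degrees of freedom. The fit was also run on simulated counts with the same spread for every gene. That simulation held no outlying library, so it does not show how the test performs on these data. Alternatives used limma 3.58.1 and DESeq2 1.42.0, other normalizations and filters, and each library left out. Exon lengths, coordinates and symbols came from GENCODE M21 (mm10); the sources used here do not give the release or strand mode of the counting. Named genes were the 9 genes, Uqcrfs1, the 2 of each list with the smallest p, genes with overlapping exons, the 3 nearest to Trp53 and the sums of cell markers with those at 0; single markers above 0, Cdkn1b, Sesn3, Mdm4, Atm, Cdkn2a, Sesn2, Gadd45a, Fdxr, Trp63 and Trp73 were added after their values were seen. Genes and lists were chosen with earlier results of these data known. The summed level of the mature T cell markers is not reported here.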

Additional observations from a re-analysis of the deposited data

How the results depend on the processing

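With 2 libraries a group, the 95% intervals rest on spread shared between genes, and for Cdkn1a and Phlda3, at under 100 counts a library, on counting error as well. Over all genes the number of calls was 3, and it was 191 without a filter on low counts, 22 with DESeq2, 81 with edgeR's exact test, 101 with its likelihood ratio test and 41 to 365 with a library left out; the cause was not tested. Of the 9 genes, 1 (Sesn1) was called without the filter, and 0 to 1 with a library left out. Of the listed pathway genes 1 (Ddit4, higher) was called without the filter, and 0 to 15 with a library left out, the 15 being 14 G2/M genes and Trp53bp1 without WT replicate 2. The median log2 change of the 9 genes ran from -0.021 (without WT replicate 1) to 0.08. Trp53 turned to 0.0013 with library totals only. Ranges over left-out libraries were -0.021 to 0.014 for Trp53, -0.014 to 0.091 for Mdm2, -0.010 to 0.45 for Cdkn1a, -0.040 to 0.080 for Ccng1, -0.050 to 0.15 for Trp53inp1, -0.57 to 0.19 for Phlda3, -0.0043 to 0.35 for Zmat3 and -0.048 to 0.14 for Aen. With the replicate number as a block 27 genes were called, and 0 of the 9; deviations of same-numbered libraries correlated at 0.091 over genes, so the numbers were not taken to pair the mice. Where leaving out a library left 1 in its group, that lone library was taken to vary as the other group does.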
